A study of Mus musculus with 11 samples.

Results

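Fli1 encodes an ETS family transcription factor, and PU.1 occupancy was followed here along the whole gene and its flanks, on chromosome 9 of mm9. In a window of 200 kb, which reaches from 51.0 kb upstream of the transcription start to 29.8 kb past the 3′ end of the gene, 13 PU.1 sites were called in MEL cells and 0 in ES-EP, out of 40883 called sites in the genome. The sites were selected on measured values: a site is a window of 500 bp in which PU.1 ChIP reads of a cell type, pooled over its preparations, exceeded the depth-scaled input of that cell type. All 13 are therefore windows that were high in MEL ChIP, and the number of reads that chose them is given as a description.

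The series holds ChIP-Seq, in which DNA fragments recovered with an antibody (T-21, against PU.1) are sequenced beside input chromatin. MEL cells are murine erythroleukemia cells, named clone 4 in the labels and clone DS19 in the study's methods. They carry a GATA-1/ER fusion and were grown in DMEM with puromycin. ES-EP are erythroid progenitors derived from embryonic stem cells and grown in StemPro34 medium with Epogen, hIGF-1, dexamethasone and SCF. Each cell type has 2 chromatin preparations (A and B) sequenced as 2 libraries each (A1, A2, B1 and B2), with 1 input in MEL cells and 2 in ES-EP. MEL cells are thus 1 clone, and RNA data were not used here, so the identity of neither cell type was checked against marker genes. A bulk ChIP level does not separate fewer occupied cells from weaker occupancy per cell.

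PU.1 and Fli1 both carry the ETS domain, which binds purine-rich DNA around a GGAA core. Both genes are known as integration targets of Friend virus complexes in mouse erythroleukemia, PU.1 (Sfpi1) with the spleen focus-forming virus and Fli1 with the Friend murine leukemia virus. In blood stem and progenitor cells Fli1 is known to act together with Erg, Gata2, Lmo2, Lyl1, Runx1 and Tal1, and it is also a regulator of megakaryocytes and of the vessel wall.

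On mm9, Fli1 lies on the minus strand at chr9:32229793-32348974 and has 9 exons, so that transcription runs from the start site at 32348974 towards lower coordinates. Sites are named by the distance of their centre from this start, positive in the direction of transcription. Of the 13 sites, 5 lie in the 5′ flank, 5 in intron 1, 1 in intron 2 and 2 in the 3′ flank, and introns 3 to 8 hold none. Kcnj1, a potassium channel gene, ends in the 3′ flank at 32206777, and the farthest site, at +140.7 kb, lies just past its end.

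The sequences of 5 of the 6 sites whose difference between the cell types passed the test are shown, as the windows behind the differences given further on, although MEL reads chose these windows. Each run is the 200 bp around the highest point of the MEL ChIP reads, read 5′ to 3′ on the minus strand of mm9. Capitals mark short words found on either strand. The ETS type words were GAGGAA, its longer form GAGGAAGT, and the shared end of the latter written GGAAGT. The GATA type word was AGATAA, while the Runx type word was TGTGGT.
Intron 1, +423 bp: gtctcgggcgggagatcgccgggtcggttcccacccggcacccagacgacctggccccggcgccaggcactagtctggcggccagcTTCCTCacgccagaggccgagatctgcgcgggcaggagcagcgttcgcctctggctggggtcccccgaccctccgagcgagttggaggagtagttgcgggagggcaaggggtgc
Intron 1, +32.42 kb: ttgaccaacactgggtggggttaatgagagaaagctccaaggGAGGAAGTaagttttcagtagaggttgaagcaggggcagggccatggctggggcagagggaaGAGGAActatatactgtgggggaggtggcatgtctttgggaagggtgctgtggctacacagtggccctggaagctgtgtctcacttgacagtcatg
Intron 2, +68.7 kb: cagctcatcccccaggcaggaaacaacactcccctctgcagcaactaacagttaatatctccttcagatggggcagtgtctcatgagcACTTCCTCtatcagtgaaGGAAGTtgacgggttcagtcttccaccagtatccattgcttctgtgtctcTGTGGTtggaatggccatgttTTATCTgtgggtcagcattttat
5′ flank, -29.4 kb: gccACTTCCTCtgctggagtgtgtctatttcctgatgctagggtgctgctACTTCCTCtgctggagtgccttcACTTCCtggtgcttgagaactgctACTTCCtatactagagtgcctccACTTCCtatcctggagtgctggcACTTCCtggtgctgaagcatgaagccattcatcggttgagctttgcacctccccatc
5′ flank, -40.9 kb: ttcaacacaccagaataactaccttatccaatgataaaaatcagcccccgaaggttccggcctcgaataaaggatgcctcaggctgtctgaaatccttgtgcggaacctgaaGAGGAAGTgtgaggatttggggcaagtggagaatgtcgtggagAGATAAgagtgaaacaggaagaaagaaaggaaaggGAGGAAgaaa

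These runs lie, in the same order, at chr9:32348283-32348482, chr9:32316359-32316558, chr9:32280052-32280251, chr9:32378270-32378469 and chr9:32389987-32390186. On the other strand GAGGAAGT reads ACTTCCTC, as in the intron 2 run. The intron 2 run was the only one of the 13 windows to hold the PU.1 type word GAGGAAGT, the GATA word and the Runx word together. No other of the 13 windows held the Runx word at all. The share of called sites with these words together is not given, so that nothing is read from this. The run at -29.4 kb held 6 copies of GGAAGT, all in the same orientation.

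Libraries held 2054667 to 4840424 ChIP reads and 2437650 to 5051235 input reads on the chromosomes. The MEL preparations had depths of 5697937 (A) and 6987141 (B) ChIP reads, and those of ES-EP 6284725 (A) and 7095855 (B). The input itself was not alike at this locus. Over the 200 kb the MEL input held 726 reads (169.7 RPM, that is, per-million reads of the library) and the ES-EP inputs 637 (85.1 RPM), a MEL to ES-EP ratio of 2.00 with an exact 95% interval of 1.79 to 2.22. The 2 ES-EP inputs gave 84.5 and 85.3 RPM. Intervals cover counting error only.

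The promoter held the highest MEL signal of the locus. Called windows at -77 bp, +423 bp and +1.0 kb abut or nearly abut, and form 1 stretch from the start site into intron 1, so that they are not independent sites. At +423 bp, MEL libraries A1, A2, B1 and B2 had 7, 20, 16 and 38 reads, against 7 in the MEL input. The ES-EP libraries had 2, 7, 0 and 7 reads there, against 1 and 6 in the inputs. MEL and ES-EP libraries did not overlap once scaled by depth: the site had 6.23 ± 2.11 RPM in MEL cells and 1.21 ± 0.315 in ES-EP (mean ± SD, n = 2 preparations). Its ChIP to input ratio was 2.90 in MEL A (95% interval 1.23 to 7.88) and 4.72 in MEL B (2.14 to 12.3). With the input of the surrounding 10 kb in place of that of the window, the ratio was 12.1 in MEL cells and 5.43 in ES-EP. Among the 31187 sites called in MEL cells this was rank 1803, with 5.78% of sites higher.

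At -77 bp, which covers the transcription start, MEL libraries had 10, 9, 17 and 18 reads against 6 in the input, and ES-EP libraries had 0, 3, 0 and 1 against 0 and 3. Every MEL library lay above every ES-EP library, with 4.17 ± 1.18 RPM in MEL cells and 0.309 ± 0.238 in ES-EP (n = 2). At +1.0 kb the MEL reads were 5, 8, 7 and 28 against 5 in the input, and the ES-EP reads 0, 4, 2 and 4 against 1 and 2. Here MEL B had 5.01 RPM and MEL A 2.28, but the gap lay with library B2 (6.58 RPM). Library B1 (2.56 RPM) was near A1 (2.43) and A2 (2.20). The interval of the ChIP to input ratio excluded 1 in MEL B (4.29, 1.67 to 14.0) but not in MEL A (1.95, 0.653 to 6.99). Another window, at -1.0 kb, had 1, 9, 3 and 12 MEL reads against 1, and stood apart from the stretch over the start. It was the 1 site of 13 at which MEL and ES-EP libraries overlapped when scaled by depth, MEL A1 having 0.487 RPM and ES-EP A2 0.509.

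**Figure D1:**
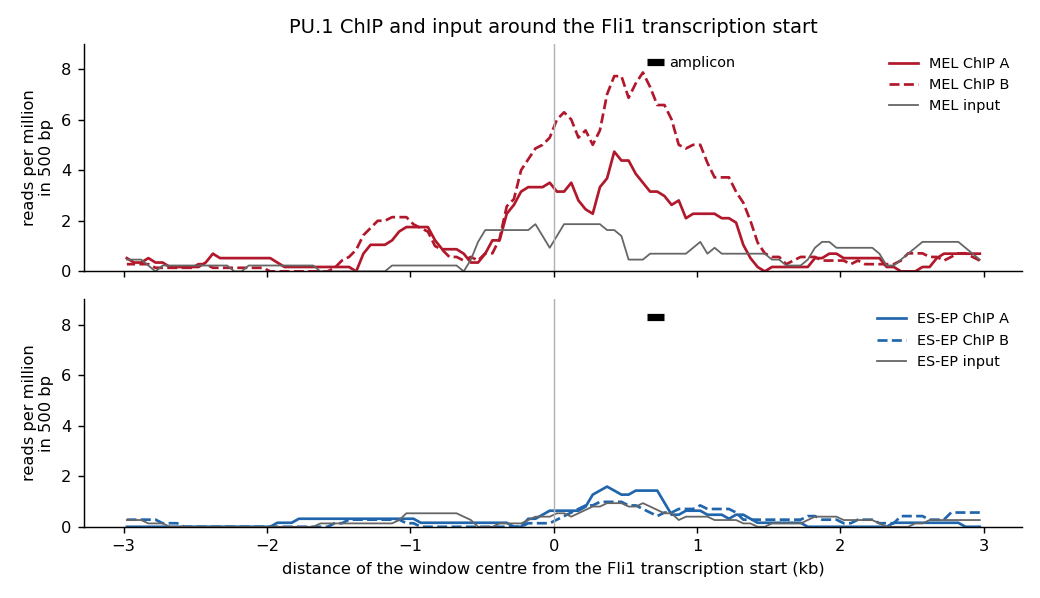
RPM in windows of 500 bp every 50 bp, by distance from the Fli1 transcription start (kb), for MEL cells (top) and ES-EP (bottom); coloured lines are the ChIP preparations A (solid) and B (dashed), gray lines the input, and the black bar the qChIP amplicon. At +423 bp both MEL preparations (4.74 and 7.73) lay above both ES-EP preparations (1.43 and 0.986).

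For qChIP, PCR on immunoprecipitated DNA, the study used at Fli1 the primers cggtctggctgacaagtaaa and cgagcgagttggaggagtag. This pair matched chromosome 9 once, at chr9:32348208-32348323 in intron 1, with the amplicon's centre 709 bp past the start. In the 500 bp around it, MEL libraries had 4, 14, 15 and 34 reads against 3 in the input, and ES-EP libraries had 1, 8, 0 and 4 against 1 and 4. The ratio of ChIP to input was 7.53 in MEL cells (2.47 to 37.5) and 1.46 in ES-EP (0.487 to 5.21). The amplicon therefore lay inside the enriched stretch of MEL cells and beside its highest point, which was at +591 bp.

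Further into the gene, MEL sites were single and narrow. The +68.7 kb site in intron 2 was the most even of all: its MEL reads were 7, 14, 12 and 15, its MEL input 0, and both preparations were close (3.69 and 3.86 RPM). With the floor of 3 input reads its ratio to input was 5.40 (exact lower limit 4.22). ES-EP had 0, 5, 1 and 1 reads against 0 and 1. The +32.42 kb site of intron 1 had 6, 11, 14 and 12 MEL reads against 2 (ratio 7.25, 1.89 to 61.8), and 1, 0, 2 and 2 ES-EP reads against 0 and 1. For both sites every MEL library was above every ES-EP library. Also in intron 1, the +19.7 kb site had 36 MEL reads against 3 (ratio 4.05, 1.28 to 20.5), and the +10.0 kb site 21 reads against 0 (2.36 with the floor, exact lower limit 1.76). The latter had its reads mostly in preparation A (14 of 21), unlike the promoter stretch, where B was higher.

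Upstream of the gene, the -29.4 kb site had 5, 7, 5 and 16 MEL reads against 3 in the input (ratio 3.71, 1.16 to 18.9). The ES-EP libraries had 0, 0, 0 and 1 there, against 0 and 1 in the inputs. At -40.9 kb the MEL reads were 6, 10, 4 and 12 against 4 (ratio 2.70, 0.957 to 10.5), and the ES-EP reads 0, 0, 1 and 1 against 3 and 4. These upstream sites had nearly no ES-EP ChIP reads, and at -40.9 kb the ES-EP ratio was below 1 (0.160, 0.0162 to 0.840), though 0.896 with input from 10 kb. The -8.0 kb site had 2, 4, 10 and 7 MEL reads against 1, with a ratio of 7.76 and a wide interval (1.26 to 319.6). In the 3′ flank, the +140.7 kb site had 19 MEL reads against 1, and the +132.0 kb site 23 against 2 (ratio 3.88, 0.959 to 33.9). The interval of the pooled MEL ratio lay above 1 at 11 of 13 sites, and held 1 at -40.9 kb and +132.0 kb. The same ChIP and input reads chose the sites, so that this count is only a description. The +132.0 kb site had ES-EP reads of 0, 5, 2 and 6 against 5 and 3 in the inputs, the most of any site outside the promoter stretch, but once scaled by depth its lowest MEL library (1.46 RPM) was still above its highest ES-EP library (1.27 RPM).

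**Figure D2:**
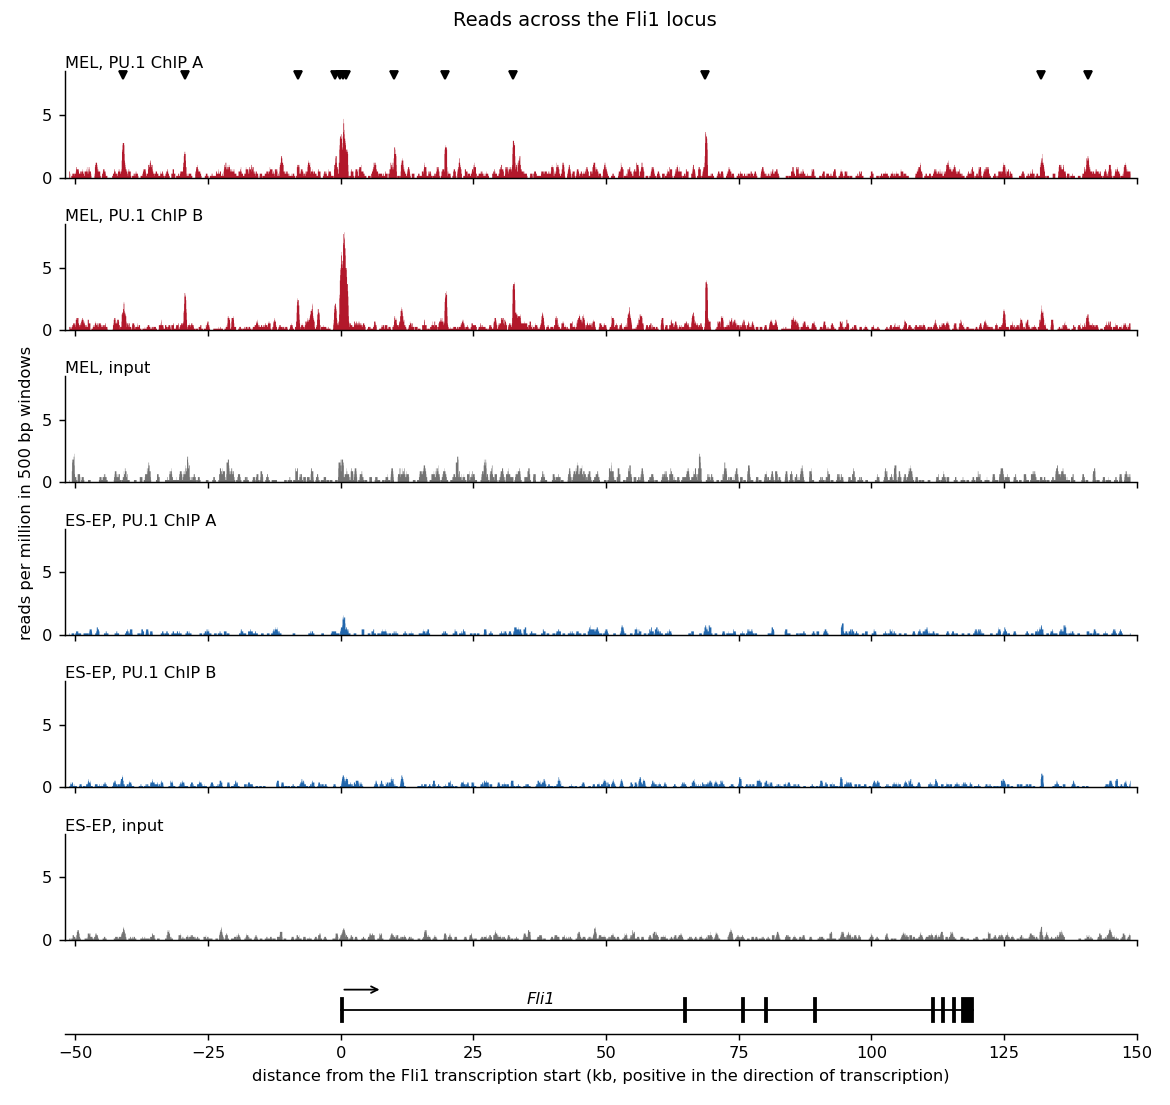
RPM in windows of 500 bp across the Fli1 locus, by distance from the transcription start (kb); from top to bottom MEL ChIP A and B, MEL input, ES-EP ChIP A and B and ES-EP input, with triangles at the 13 called sites and the exons of Fli1 as black boxes. MEL peaks stand over the start, at +32.42 and +68.7 kb and upstream, while no ES-EP window was called.

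**Figure D3:**
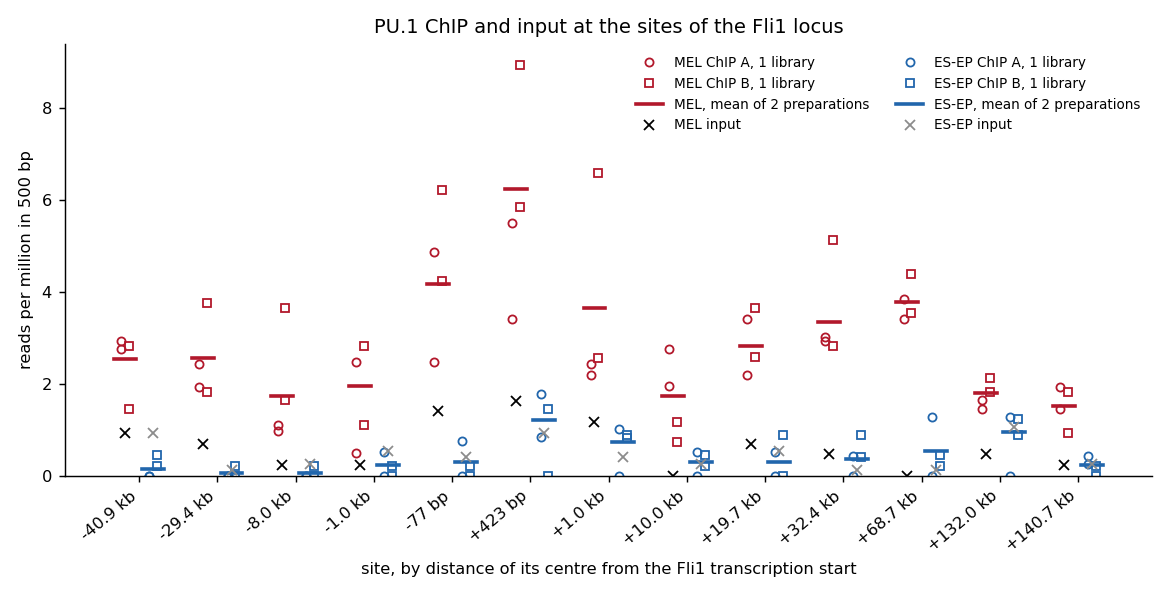
RPM in 500 bp at each of the 13 sites, named by distance from the Fli1 start, with MEL cells in red and ES-EP in blue; open circles and squares are the libraries of preparations A and B, bars the mean of the 2 preparations and crosses the inputs. MEL libraries lie above ES-EP libraries at 12 of 13 sites, and overlap at -1.0 kb.

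The members nearest to the calling threshold, an exact Poisson p of 0.000112 in MEL cells, were +10.0 kb (21 ChIP reads against 0 with repeated positions dropped, p = 1.3e-06), -1.0 kb (24 against 1, p = 9.54e-07) and +132.0 kb (22 against 2, p = 1.55e-07), each by its best window. By the same exact p, the best windows not called and apart from called ones were at +125.0 kb (16 against 1, p = 0.00016), -4.3 kb (16 against 2, p = 0.000472) and +11.4 kb (20 against 3, p = 0.000542). These p values chose the sites and are given as a description. In ES-EP the windows nearest to the threshold were at +52.9 kb, with 10 ChIP reads against 0, and at +100.4 and +23.0 kb, with 7 against 0, and none of these coincided with a MEL site. Summed over the 13 sites, ES-EP had 73 ChIP reads against 45 in the inputs, a ratio of 0.908 (0.618 to 1.35), and the interval held 1 at 12 of 13 sites. These values rest on the input of the window itself: with input from 10 kb the ES-EP ratio was 5.43 at +423 bp, 3.47 at +132.0 kb and 3.39 at +1.0 kb. MEL cells had 486 against 35, a ratio of 4.68 (3.32 to 6.80), in the reads that chose the sites.

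Sites were also called from 1 MEL preparation and counted in the other. Among overlapping called windows, the one kept had the most depth-scaled ChIP reads over the preparations of both cell types. The reads counted are therefore not free of the choice of window, and the MEL input was used in the choice as well as in the ratio. These ratios are given as a description. MEL A alone called 5 sites in the window. At these, MEL B had 129 reads against 11 in the input, a ratio of 7.18 (3.88 to 14.7), with an interval above 1 at 4 of 5 sites. MEL B alone called 10 sites, and there MEL A had 155 reads against 31, a ratio of 3.75 (2.54 to 5.72), with an interval above 1 at 5 of 10. The sites over the input in the other preparation in both directions were +68.7 kb, +32.42 kb, +423 bp and a window that overlaps the -40.9 kb site but holds fewer input reads (2 against 4). At the same 5 and 10 sites the ES-EP ratio was 1.00 (0.555 to 1.86) and 0.928 (0.611 to 1.43). All MEL values here used the same input library, so that a window with few input reads was easier to call and also has a higher ratio.

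The shape of the MEL reads is given as a description. Around the highest points of the 13 sites, 229 MEL reads on the plus strand had their ends at a median of -69 bp and 252 on the minus strand at +71.5 bp, a lag of 140.5 bp. The highest points were placed where MEL ends moved by 70 bp were densest, so that a lag of about this size follows from the rule. In ES-EP, 46 plus and 31 minus reads around the same points had medians of -8.5 and -15 bp, with no such lag. ES-EP reads did not choose the points, so that this contrast was built in and nothing is read from it.

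To compare the cell types, reads at every called site of the genome entered 1 limma fit over preparations (2 against 2). Over all sites 469 of 40883 were higher in MEL cells (1.15%) and 191 lower (0.467%) at an adjusted p below 0.05, and the median log2 difference was -0.15. At Fli1, 6 of 13 were higher and 0 lower, with a median log2 difference of 2.84, and the MEL preparations lay above both ES-EP preparations at 13 of 13 sites, against 24.9% of all sites. All 4 MEL libraries lay above all 4 ES-EP libraries at 12 of 13 sites, against 9% of all sites. Since all 13 were called in MEL cells and not in ES-EP, as 44.2% of the sites of the genome were, a difference in this direction was built into their choice, and nothing is read from these counts.

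The log2 difference was 3.64 at -77 bp (SE 0.968, adjusted p = 0.0238), 2.28 at +423 bp (SE 0.675, adjusted p = 0.0484), 3.08 at +32.42 kb (SE 0.916, adjusted p = 0.0486) and 2.84 at +68.7 kb (SE 0.806, adjusted p = 0.0366). It was also past the threshold at -29.4 kb (4.32, SE 1.14, adjusted p = 0.0227) and -40.9 kb (3.97, SE 1.14, adjusted p = 0.0413). The ES-EP preparations A and B had 0 and 1 reads at -29.4 kb and 0 and 2 at -40.9 kb. The size of these differences therefore depends on how such low counts are treated. By limma trend on log2(RPM + 0.5) they were 2.42 and 2.28, against 2.54 at -77 bp. The differences at the other 7 sites ranged from 0.85 at +132.0 kb to 3.71 at -8.0 kb, with adjusted p values from 0.0590 to 0.459. These differences move with the input. When the log2 ratio of the MEL to the ES-EP input in 200 kb around each site was taken off, the 13 differences had a median of 1.82 (-0.26 over all sites) and 0 of 13 passed, against 0.421% of all sites higher in MEL cells. Without the adjustment for multiple tests 7 of 13 had p below 0.05 in that fit, as had 5944 of 40883 sites, 2897 of them higher in MEL cells. Another fit, by limma trend, subtracted the depth-scaled input of each window and set values below 0 to 0. There 9 of 13 were higher in MEL cells, with a median of 2.14 (0.36 over all sites), as were 3028 of 40883 sites. The choice of the sites by MEL reads favoured this direction here too. Leaving out any 1 of the 4 preparations also left 0 of 13 past the threshold, but then 0 to 114 of all sites passed, and the median difference at Fli1 was 2.34 to 2.96.

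The same comparison was made on annotated features, whose bounds do not depend on reads, although Fli1 itself was picked with earlier results of these data known. In the 4 kb around the start, MEL A had 72 and MEL B 153 reads, against 22 and 18 in ES-EP A and B. The promoter of Fli1 was higher in MEL cells by 2.42 on the log2 scale (SE 0.565, adjusted p = 0.00928), where 0.261% of 20708 promoters were called higher. By the size of this difference it ranked 29 among all 20708. With the input ratio of 200 kb taken off, the difference was 1.28 (rank 201) and the adjusted p 0.572. It also missed the threshold without any 1 of the preparations, with adjusted p = 0.142 without MEL B to 0.388 without ES-EP B, and differences between 2.06 and 2.86.

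Over the whole gene with 2 kb on either side, the limma difference was 1.30 (SE 0.153, adjusted p = 0.000590), where 3.65% of 21373 genes were called higher. It was still 1.06 (SE 0.146, adjusted p = 6.31e-07) after the reads at called sites were left out, where 7.43% of genes were called. The input of MEL cells was higher over the gene to the same degree, with 461 reads (107.7 RPM) against 386 (51.5 RPM), a ratio of 2.09 (1.82 to 2.40). With the input ratio taken off, the difference was 0.32 (adjusted p = 0.460) for the gene and 0.07 (adjusted p = 0.905) for the gene without its sites. Outside the called sites of the 200 kb, MEL ChIP A and B had 154.8 and 149 RPM and the MEL input 161.5, while ES-EP A and B had 59.8 and 81.0 and the ES-EP inputs 79.1.

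By part of the locus, the promoter was the 1 part of 12 where the interval of the MEL ChIP to input ratio lay above 1 (3.04, 2.00 to 4.79). Intron 1 without the promoter had a ratio of 1.02 (0.883 to 1.17) over 62.6 kb despite its 3 sites, and the 5′ flank 1.19 (0.995 to 1.42). In ES-EP the promoter had a ratio of 1.18 (0.667 to 2.15). Between the cell types, the promoter had 5.93 times more ChIP reads in MEL cells (4.22 to 8.53) and 2.30 times more input reads (1.22 to 4.42). Intron 1 had 2.56 times more ChIP reads (2.25 to 2.92) and 2.27 times more input reads (1.89 to 2.74). Intron 5, with no site, had 1.25 times more ChIP reads (0.979 to 1.61) and 1.56 times more input reads (1.10 to 2.21).

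**Figure D4:**
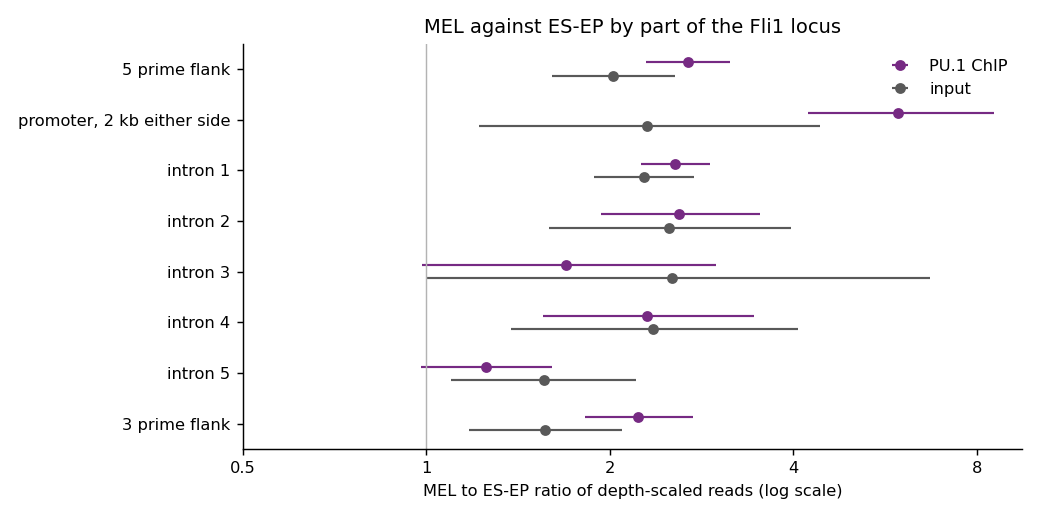
MEL to ES-EP ratio of depth-scaled reads (log axis) for each part of the Fli1 locus with at least 20 input reads, in PU.1 ChIP (purple) and in input (gray), with exact 95% intervals from counting. The ChIP ratio of the promoter (5.93) stands above its input ratio (2.30), whereas in intron 1 both are alike (2.56 and 2.27).

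The higher MEL input was not confined to Fli1. In bins of 1 Mb the MEL to ES-EP input ratio was 1.71 in the bin that holds Fli1, the highest of 122 bins on chromosome 9, against a median of 1.02 for this chromosome and 0.942 over 2386 autosomal bins. Of the autosomal bins 2.64% were higher. The bins just before and after it had 1.42 and 1.16. Over the neighbouring gene Ets1, another ETS factor, the ratio was 1.75 (1.51 to 2.02), and over Kcnj1 1.43 (1.05 to 1.96). What this input difference adds to the ChIP differences was not tested beyond the fits with the input ratio taken off and the fit with input subtracted.

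**Figure D5:**
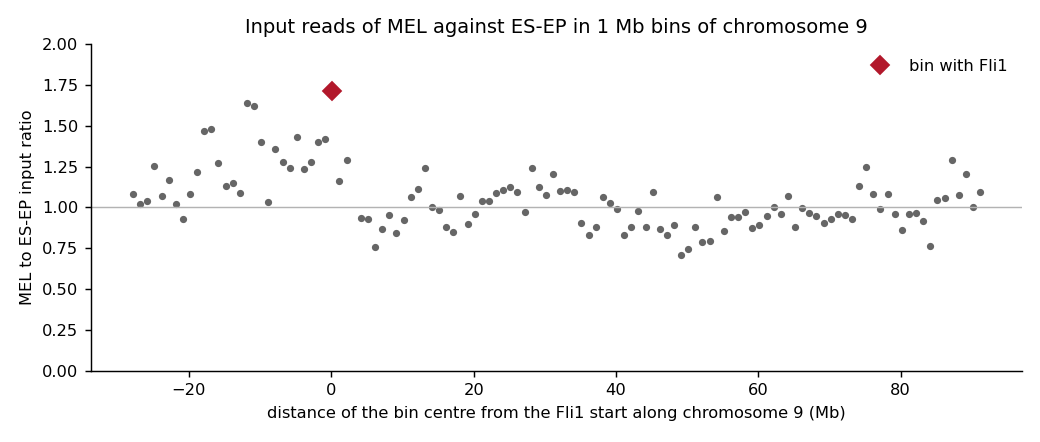
MEL to ES-EP ratio of depth-scaled input reads in bins of 1 Mb along chromosome 9, by distance from the Fli1 start (Mb), for 119 bins; 3 bins with a ratio under 0.3 are not drawn. The bin with Fli1 (1.71, diamond) is the highest.

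In the 200 bp around the highest point, 8 of 13 Fli1 sites held GAGGAA and 5 held GAGGAAGT. These words were in 42.4% and 19.7% of all called sites and in 18.2% and 1.30% of a grid of 25583 genome windows of that length. GAGGAA began within 20 bp of the highest point at 5 sites, among them +423 bp and +68.7 kb. No share over all called sites is given for this distance, so that nothing is read from the count. AGATAA was found at 3 sites (10.6% of called sites, 13.4% of the grid) and TGTGGT at 1 (12.5% and 13.5%). The words overlap, since GAGGAAGT contains each of the other ETS type words. The word GGAAGT, added after the sequences were seen, was in 8 of 13 sites, 47.1% of called sites and 11.2% of the grid, and 6 or more copies, as at -29.4 kb, were found in 14 of 40880 called sites. Windows at +19.7 kb, +132.0 kb and -1.0 kb held none of the 5 words, which says only that these letters are not in those windows.

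Counted within the gene and 2 kb on either side, Fli1 had 8 sites in MEL cells and 0 in ES-EP. Of 22367 protein-coding genes 117 had 8 or more MEL sites, and these had a median of 5 ES-EP sites. Besides Fli1, 3 of the 117 had 0 ES-EP sites, namely Aff3 (9 MEL sites), Jag2 (8) and Ptprn2 (8). The highest window of the gene, at +423 bp, was exceeded in MEL cells by the highest window of 6.34% of genes.

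The genes whose highest window was nearest to that of Fli1, by Euclidean distance of log2(RPM + 0.5) over the 4 preparations, were Il17d (0.255), Plekho1 (0.261), Fbxo25 (0.291), Cblb (0.342) and Lamc1 (0.393). In Il17d the window had 5.27, 6.87, 1.43 and 0.846 RPM in the A and B preparations of MEL cells, then of ES-EP, against 4.74, 7.73, 1.43 and 0.986 in Fli1. These genes had 1 to 5 MEL sites and 0 to 3 ES-EP sites, fewer MEL sites than Fli1.

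Erg, Gata2, Lmo2, Lyl1, Runx1 and Tal1 had 32 called sites together, of which 24 were MEL sites, 19 were ES-EP sites and 11 were shared, and each gene had at least 1 in each cell type. By limma 0 of 32 were higher and 0 lower in MEL cells at an adjusted p below 0.05, where the shares over all sites were 1.15% and 0.467%, so that the count is no contrast with Fli1. Without the adjustment 0 were higher and 4 lower at p below 0.05, where 7195 of 40883 sites passed in either direction and 4215 of these were higher. Further, limma trend called 0 higher and 1 lower, against 1423 and 739 of all sites. Runx1 had the most, with 9 MEL and 8 ES-EP sites. At Lyl1, a basic helix-loop-helix factor, the highest site lay 95 bp from the start and had 24 and 94 reads in the MEL preparations, against 144 and 117 in those of ES-EP (log2 difference -1.38, adjusted p = 0.326). Erg, the closest relative of Fli1, had its highest site 147349 bp from the start, with 6 and 11 MEL reads and 34 and 20 ES-EP reads (log2 difference -1.54, adjusted p = 0.198). At Gata2 and Tal1 the highest sites, near the start, had log2 differences of -0.48 and -0.66, with adjusted p values of 0.674 and 0.592. Lmo2 had a log2 difference of 0.16 (adjusted p = 0.901) at its highest site and Runx1 one of -1.03 (adjusted p = 0.421). Input reads at these highest sites were few. The MEL input held 1 read each at Tal1 and Erg, 2 at Lyl1, 4 at Gata2 and 6 each at Lmo2 and Runx1. For the same genes in that order, the pooled ES-EP inputs, which were deeper, held 20, 7, 8, 12, 18 and 6. No difference with the input ratio taken off is given for these sites, so what input adds there was not tested. The difference between Fli1 and the partner genes was not tested.

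Genes beside Fli1 on chromosome 9 also had mostly MEL sites. Ets1 had 4 in MEL cells and 0 in ES-EP, with log2 differences above 0 at 4 of 4 (median 2.54) and 2 past the threshold. At its highest site the MEL preparations had 15 and 33 reads and those of ES-EP 18 and 19, a log2 difference of 0.33 (adjusted p = 0.783 by limma). At Kcnj1 there were 2 MEL sites, 1 of them also called in ES-EP and the other the +140.7 kb site. Its highest site had 46 and 58 reads in the MEL preparations against 15 and 3 in those of ES-EP, a log2 difference of 2.94 (adjusted p = 0.00890 by limma). Kcnj5, another potassium channel gene, had 2 MEL sites and 0 in ES-EP. More MEL than ES-EP sites was thus not particular to Fli1 within this stretch, and the MEL input was also higher over Ets1 and Kcnj1.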

How the data were processed

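The deposited files hold 1 aligned read per line; per the study's methods and the labels, the authors mapped Illumina reads with ELAND to mm9 and kept uniquely placed ones (version not given in the sources used here). Read ends were moved by 70 bp (MEL) or 65 bp (ES-EP). Windows of 500 bp every 50 bp were called where ChIP reads, at most 1 per position and strand in a library, exceeded the largest of depth-scaled input in the window, in 5 or 10 kb and the genome mean (Poisson, Benjamini-Hochberg rate and ChIP-input exchange rate below 0.05, 53097917 windows), and merged to sites with all reads counted. The letter of a library title was taken as its preparation. limma 3.58.1 (voom, R 4.3.3, Benjamini-Hochberg over all features) compared preparations at all sites, and at promoters and genes with at least 20 reads. Ratios carry exact 95% conditional binomial intervals, and an input of 0 reads a floor of 3 reads. Sites are all called ones of the window; those described at length are the one nearest the start, the amplicon, the 5 with most reads and those past the test. Like genes and partners followed fixed rules. The members and lists were chosen with earlier results of these data known. Scripts were tested on simulated data. No column of per-sample values was left out. Nothing states that the preparations came from separate cultures, so p-values rest on the spread between these preparations. limma shares this spread over the features of a fit, so that a p-value does not measure the spread at its own feature alone. The annotation is GENCODE vM1. The sequence of 1 site is not reported here.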

Additional observations from a re-analysis of the deposited data

Results flagged for a closer look

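Single libraries stood apart from the other 3 of their cell type, scaled by depth, at 5 of 26 groups of 4 libraries. The rule's rate of about 1 in 20 by chance is for continuous values. It does not hold for counts this low, so that no excess is read from the number of flags. At +32.42 kb, MEL B1 had 5.12 RPM and the next library 3.02, and at +1.0 kb MEL B2 had 6.58 against 2.56. At -40.9 kb MEL B1 was the lowest with 1.46 against 2.75. At both -8.0 and -29.4 kb ES-EP B2 had 0.207 RPM, which is 1 read, where the other ES-EP libraries had 0. The rule always flags such a group. The 4 libraries come from 2 preparations and are not independent samples.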

How the results depend on the processing

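The number of MEL sites at Fli1 was 13 and stayed between 10 and 16 except with the first library of each preparation (5), and was 5 to 10 when a preparation was left out (5 without B, 10 without A). ES-EP had 0 sites in all 9 alternatives. Each of these kept the depth-scaled input of the window itself in the background, so that calling without it was not tried. All 221 site differences under alternatives were above 0, where 44.9% of all sites were above 0 in the main fit. They belong to the same 13 windows, called in MEL cells and not in ES-EP. This sign was built into their choice, and nothing is read from it. Sites higher in MEL cells at Fli1 numbered 6, but 11 with limma trend and 12 with each library as a sample. They numbered 9 with median-ratio scaling and 9 with input subtracted. With reads outside sites as depth there were 3, with a minimum of 20 reads 0, and with the input ratio taken off 0. The first and the second libraries gave 1 and 0. When a preparation was left out, the median difference at Fli1 was 2.34 to 2.96. The cause was not tested, other than that leaving out a preparation or a library leaves fewer reads. Sites of the genome that differ numbered 660, but 2162 with limma trend, 2994 with median-ratio scaling, 185 with the minimum of 20 reads, 4048 with each library as a sample, 60 and 234 with the first and second libraries, 4497 with input subtracted, 267 with the input ratio taken off, and 0 to 114 when a preparation was left out.

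Letters of preparations did not pair the cell types: the deviations of the 2 A preparations from their means correlated with r = 0.0249 over 36204 sites. With the letter as a replicate block, 1 site at Fli1 and 184 in the genome passed, and the promoter difference was 2.37 with adjusted p = 0.185, while the gene kept its call.

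Differences past the threshold at annotated features ended with the input ratio taken off, an alternative chosen after the inputs were compared: 1.28 at the promoter, 0.316 over the gene and 0.0715 without its sites. The promoter difference was 2.06 to 2.86 when a preparation was left out, past the threshold in none. Taking input from 10 kb in place of the window moved the ChIP to input ratio past its interval at +423 bp (12.1 in MEL cells, 5.43 in ES-EP), at +132.0 kb (3.47 in ES-EP) and at -40.9 kb (0.896 in ES-EP). The other 68 of 72 ratios stayed within it. Every site had under 10 input reads in each cell type, so that its ratios are known only within wide intervals.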
